A study of Rattus norvegicus with 17 samples.

Results

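Genes of fatty acid oxidation and ketone metabolism were followed in rat liver after 4 daily doses of isopropylated phenol phosphate. The set was chosen by name, with earlier results of these data known. It holds 35 genes that take up and activate fatty acids, carry them into mitochondria, oxidise them in mitochondria or peroxisomes, handle ketone bodies, or regulate these steps. All 35 had a probe set with a single gene symbol, among 14217 such genes, and each was represented by its brightest probe set over the 17 arrays. Several probe sets existed for 12 members, and values of another one are given below only for Acsl5. By location, 19 members encode mitochondrial proteins, 7 peroxisomal proteins and 3 proteins of both compartments, and the other 6 act in the cytosol, at membranes or in the nucleus. These 6 are Cd36, Slc27a2, Fabp1, Acsl1, Ppara and Acsl5, the last of mitochondria and endoplasmic reticulum. They enter neither the mitochondrial nor the peroxisomal means below, also where the membrane is one of a mitochondrion or peroxisome.

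Isopropylated phenol phosphate (IPP) is an aryl phosphate used as a flame retardant and plasticizer. The rats were male Harlan Sprague Dawley animals dosed by gavage once a day, with pieces of the left liver lobe taken after the 4 doses and RNA measured on 1 Affymetrix array per rat. Corn oil alone was given to 5 vehicle rats, and IPP in corn oil to 3 rats each at 76.5, 153, 305.5 and 611 mg/kg. Ages were not given in the sources used here, and every dose was compared with the same 5 vehicle rats.

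Beta-oxidation shortens an activated fatty acid by cycles of dehydrogenation, hydration, a further dehydrogenation and thiolytic cleavage. Long chains enter mitochondria as carnitine esters, whereas very long and branched chains are shortened in peroxisomes, and liver turns part of the acetyl-CoA into ketone bodies. Many of the genes respond to the nuclear receptor PPARA, and rodent liver is known for strong induction of peroxisomal enzymes by its ligands.

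Hepatocyte markers were bright on every array. The mean over 9 measured markers lay between 13.47 and 13.90 on the log2 scale, and that over 3 skeletal muscle markers in vehicle rats between 4.08 and 4.27. Array medians ran from 6.29 to 6.40. The array of 611 mg/kg rat 2 had a 3' minus 5' difference of the GAPDH control of 2.89, against 0.93 to 1.56 on the other 16. In bulk liver, fewer cells of a type and less RNA per cell cannot be told apart.

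Most of the pathway showed no change that passed the test, and 4 of the 5 genes that passed were lower. Crat, carnitine acetyltransferase, fell at 153, 305.5 and 611 mg/kg. Acsl5, an acyl-CoA synthetase, fell at 305.5 and 611 mg/kg by the brighter of its 2 probe sets. The dimmer one lay on the higher side at both doses and did not pass. Along the dose groups Fabp1 and Acadm also fell and Decr1 rose, by small amounts. The other 30 members passed in none of 7 comparisons, and no peroxisomal member passed in any.

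Each difference is on the log2 scale, treated minus control, with the SE that limma gave when the 17 arrays were fitted together, and a member counted as changed at a Benjamini-Hochberg adjusted p under 0.05 over all genes. At 76.5 mg/kg limma called 0 of 35 members, against 0.141% of all genes higher and 0.127% lower, and 1 member higher and 4 lower had an unadjusted p under 0.05. At 153 mg/kg 1 member was lower (2.86%, against 0.338% of all genes) and 0 higher (0.408% of all genes). At 305.5 mg/kg 2 were lower (5.71%, against 1.47%) and 0 higher (0.753% of all genes). At 611 mg/kg 2 were lower (5.71%, against 2.42%) and 0 higher, where 5.04% of all genes were higher. With so few members called, these shares rest on 1 or 2 genes. Counts at an unadjusted p under 0.05, here and below, stand without the share of all genes at that threshold. They are given as description and not as a result about a list.

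Averaged over the 4 dose groups, 2 members were lower (1.83% of all genes) and 0 higher (2.18%). The slope over the rank of the dose group, from 0 for vehicle to 4 for 611 mg/kg, called 4 members lower (11.4%, against 2.78% of all genes) and 1 higher (2.86%, against 3.96%). Between 611 and 305.5 mg/kg limma called 0 members, against 0.288% of all genes higher and 0.0352% lower, with 1 member on each side at an unadjusted p under 0.05.

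The median difference of the 35 members was -0.00, 0.01, -0.04 and -0.01 at 76.5, 153, 305.5 and 611 mg/kg, beside medians of all genes of 0.01, 0.01, 0.01 and -0.00. For 24 members the 95% interval lay within 0.5 log2 of 0 at each of the 4 doses. The exceptions were Cd36, Acsl5, Cpt1a, Crat, Hadha, Acaa2, Ech1, Ehhadh, Abcd2, Abcd3 and Ppara. The median SD within groups was 0.13 over the members and 0.15 over all genes.

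**Figure D1:**
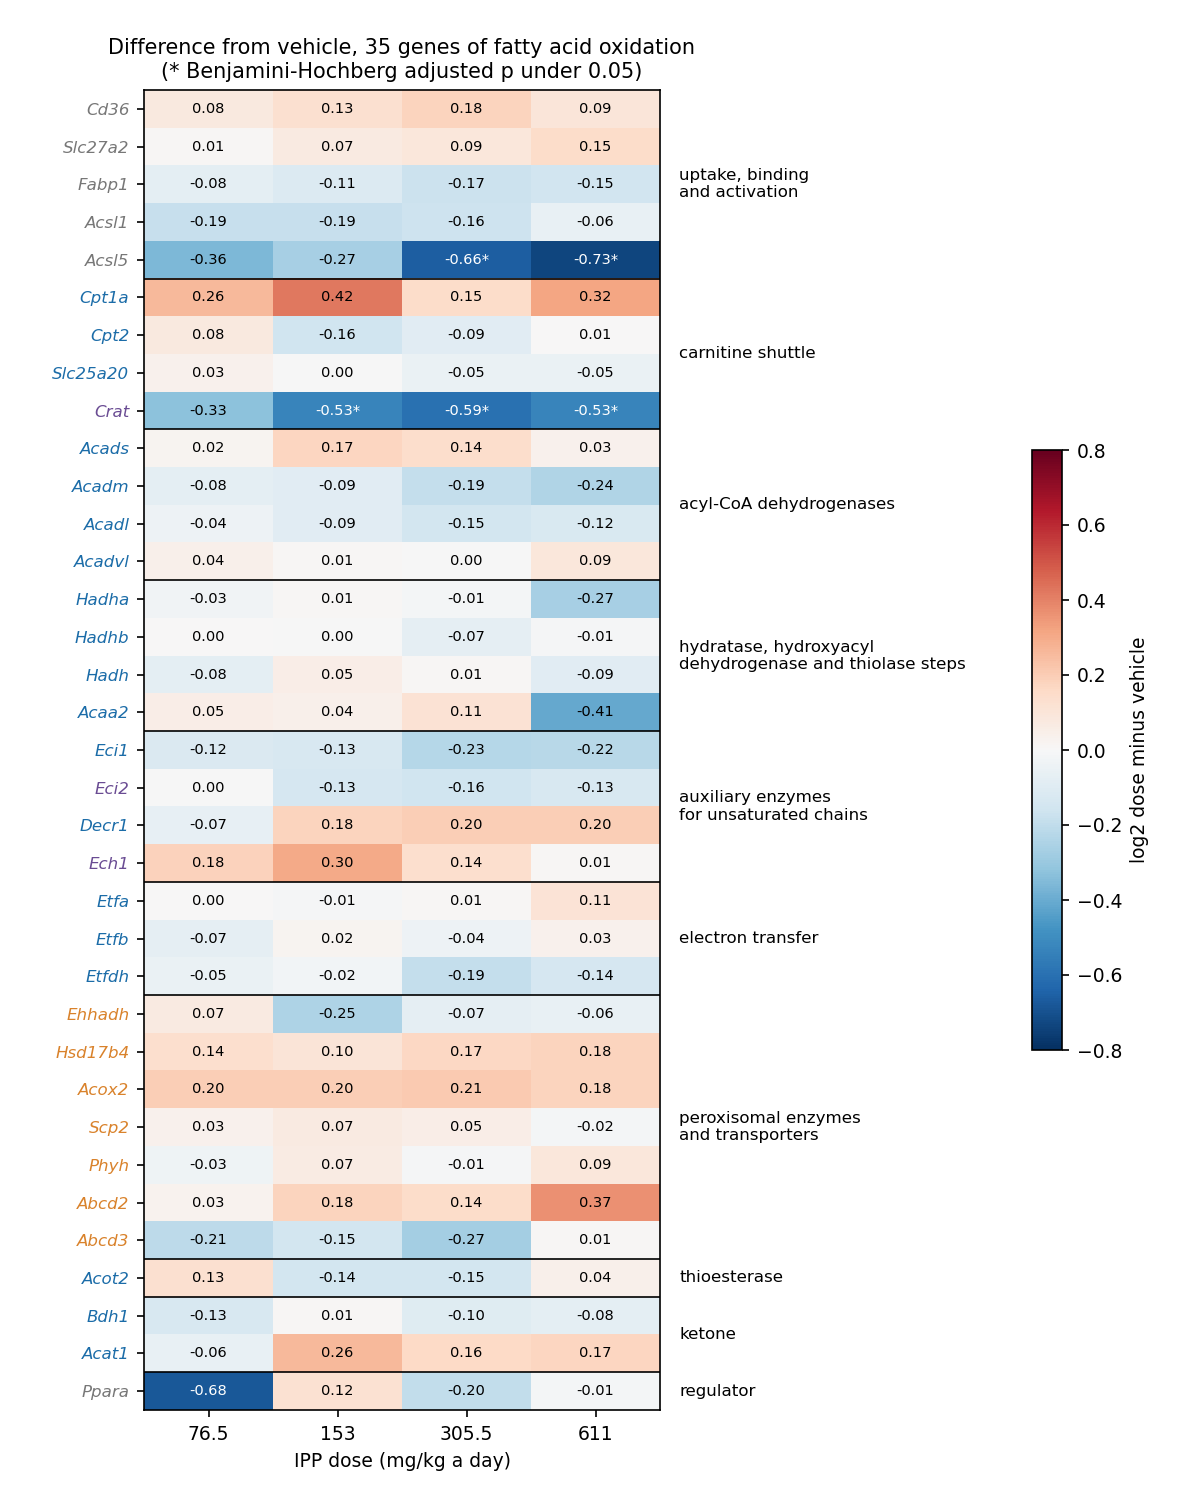
Log2 difference from vehicle of each of the 35 members (rows, grouped by role) at each dose (columns, mg/kg a day), with asterisks at adjusted p under 0.05. Gene names are blue for mitochondrial, orange for peroxisomal, purple for both and grey for other members. The 5 asterisks belong to Crat and to the brighter probe set of Acsl5, with differences from -0.53 to -0.73.

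As a second view, members were counted whose 3 treated rats all lay outside the range of the 5 vehicle rats. At 76.5 mg/kg these were Acox2 above and Etfb below, 2 of 35 (5.71%, against 6.3% of all genes). At 153 mg/kg they were Decr1 and Acat1 above and Acsl1, Crat and Acadl below, 5 of 35 (14.3%, against 12.7%). At 305.5 mg/kg they were Decr1 and Acox2 above and Acsl5, Crat and Acadl below (14.3%, against 13.7%). At 611 mg/kg Slc27a2 lay above and Fabp1, Acsl5 and Crat below, 4 of 35 (11.4%, against 18.6%). The members' shares were near or under those of all genes.

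Because many of these genes are PPARA targets, the 250 bases before the gene start were searched for the direct repeat that PPARA binds with its partner RXR, AGGTCANAGGTCA, on both strands. Of the 35 members, 31 had a promoter in the RefSeq table (build GRCr8), and Acadl, Acaa2, Decr1 and Ech1 had none. A match with at most 2 mismatches in the 12 fixed letters was found in 5 of 31 member promoters (16.1%) and in 853 of 27457 promoters in all (3.11%), and with at most 1 mismatch in 2 (6.45%, against 0.386%). With at most 3 mismatches it was found in 11 (35.5%, against 21%). The windows of Hadha and Hadhb share 200 bases, and the match with 3 mismatches counted for each is the same stretch. The median share of G and C letters was 58.4% in member windows and 52.0% over all promoters. Its part in the shares with a match was not tested. The 5 stretches are shown because they hold the closest matches among the members. Each is written 5' to 3' along the gene with the match in capitals and up to 20 bases on either side. The match of Fabp1, Slc27a2 and Etfa lies on the opposite strand.
Fabp1, chr4:104749243-104749295, plus strand: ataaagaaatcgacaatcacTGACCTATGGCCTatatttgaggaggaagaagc
Slc27a2, chr3:134258005-134258057, plus strand: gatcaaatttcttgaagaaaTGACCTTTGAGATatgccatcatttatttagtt
Crat, chr3:34087290-34087342, minus strand: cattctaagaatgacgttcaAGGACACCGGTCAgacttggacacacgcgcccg
Acadvl, chr10:55236706-55236742, minus strand: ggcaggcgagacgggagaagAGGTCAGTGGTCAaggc
Etfa, chr8:64788087-64788139, minus strand: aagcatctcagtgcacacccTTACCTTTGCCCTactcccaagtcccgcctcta

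The match starts 77 bases before the gene start in Fabp1, 76 in Slc27a2, 223 in Crat, 17 in Acadvl and 154 in Etfa. These 5 genes did not move alike. At 611 mg/kg their differences were -0.15 for Fabp1, 0.15 for Slc27a2, -0.53 for Crat, 0.09 for Acadvl and 0.11 for Etfa. Of these only Crat passed at that dose. A match is a resemblance of letters, and binding at these stretches was not measured.

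Among the 5 genes of uptake, binding and activation, Acsl5 showed the largest difference of the whole set at 305.5 and 611 mg/kg. It encodes a long-chain acyl-CoA synthetase of mitochondria and endoplasmic reticulum, which joins fatty acids to coenzyme A. Its values were 11.73, 11.96, 12.05, 11.64 and 12.13 in the vehicle rats, 11.82, 11.26 and 11.56 at 76.5 mg/kg, and 11.57, 11.55 and 11.78 at 153 mg/kg. They were 11.26, 10.96 and 11.51 at 305.5 mg/kg and 11.23, 10.89 and 11.39 at 611 mg/kg. Every rat at the upper 2 doses lay below every vehicle rat, whereas 1 rat at each lower dose was inside the vehicle range. Acsl5 fell by 0.66 ± 0.15 at 305.5 mg/kg (limma, adjusted p = 0.0291) and by 0.73 ± 0.15 at 611 mg/kg (adjusted p = 0.00833), to 0.602 of the vehicle level. Its slope was -0.18 ± 0.03 per dose step (adjusted p = 0.00376), and over all dose groups it fell by 0.50 ± 0.11 (adjusted p = 0.0152).

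The fall of Acsl5 held for 1 of its 2 probe sets. The dimmer one, with a mean of 8.24 against 11.55, gave differences of 0.27 ± 0.12 at 305.5 mg/kg (limma over all probe sets, adjusted p = 0.369) and 0.22 ± 0.12 at 611 mg/kg (adjusted p = 0.310), opposite in sign and not passing. The mean over both probe sets passed in none of these comparisons: it was -0.19 at 305.5 mg/kg (adjusted p = 0.362) and -0.26 at 611 mg/kg (adjusted p = 0.0906). The call at 611 mg/kg was also lost without 611 mg/kg rat 2 (-0.59, adjusted p = 0.0639), the rat with the large GAPDH difference. That at 305.5 mg/kg was lost without vehicle rat 2, 3 or 5 or without rat 1 or 2 of that dose, with adjusted p from 0.0593 to 0.177. The call over all dose groups was lost without vehicle rat 3 or 5 (adjusted p from 0.0529 to 0.0601).

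Fabp1 encodes the liver fatty acid binding protein, the main carrier of fatty acids in the hepatocyte cytosol. Its values were 14.57, 14.52, 14.56, 14.40 and 14.55 in the vehicle rats, 14.43, 14.52 and 14.39 at 76.5 mg/kg, and 14.35, 14.35 and 14.52 at 153 mg/kg. At 305.5 mg/kg they were 14.30, 14.42 and 14.34, and at 611 mg/kg 14.38, 14.35 and 14.38. The rats at 611 mg/kg lay just below the lowest vehicle rat, and those at the other doses overlapped the vehicle range. The slope was -0.04 ± 0.01 per dose step (limma, adjusted p = 0.0435), and the differences at single doses, from -0.08 to -0.17, did not pass. The call was fragile: leaving out any of 12 single rats ended it, with adjusted p from 0.0511 to 0.0980. These were vehicle rats 1, 2, 3 and 5, 76.5 mg/kg rat 1, 153 mg/kg rats 1 and 2, 305.5 mg/kg rats 1 and 3, and all 3 rats at 611 mg/kg.

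Slc27a2, a very long-chain acyl-CoA synthetase and transporter, differed by 0.15 ± 0.06 at 611 mg/kg (limma, adjusted p = 0.136), where its 3 rats lay above the vehicle range. Acsl1, the major long-chain acyl-CoA synthetase of liver, lay at -0.19 ± 0.08 at 153 mg/kg (limma, adjusted p = 0.377) and was on the lower side at all 4 doses. Cd36, a fatty acid translocase of the cell surface, was dim in these livers (mean 6.38) and its differences ran from 0.08 to 0.18 with an SE of 0.24.

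Of the 4 genes of the carnitine shuttle, Crat fell and the other 3 did not pass. Crat encodes carnitine acetyltransferase, which exchanges short acyl groups between coenzyme A and carnitine in mitochondria and peroxisomes. The vehicle rats measured 10.03, 9.98, 9.87, 9.91 and 9.83, and those at 76.5 mg/kg 9.85, 9.63 and 9.30. The values were 9.55, 9.39 and 9.25 at 153 mg/kg, 9.27, 9.31 and 9.40 at 305.5 mg/kg, and 9.48, 9.31 and 9.39 at 611 mg/kg. All 9 rats from 153 mg/kg up lay below every vehicle rat, as did 2 of 3 at 76.5 mg/kg. Over all doses 11 of 12 treated rats were below the vehicle range.

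Crat fell by 0.53 ± 0.11 at 153 mg/kg (limma, adjusted p = 0.0300), by 0.59 ± 0.11 at 305.5 mg/kg (adjusted p = 0.00658) and by 0.53 ± 0.11 at 611 mg/kg (adjusted p = 0.00754). At 76.5 mg/kg it lay at -0.33 ± 0.11 (adjusted p = 0.271). The difference between 611 and 305.5 mg/kg was 0.07 ± 0.12 (adjusted p = 0.814) and did not pass. Over all dose groups it fell by 0.49 ± 0.08 (adjusted p = 0.00136), to 0.710 of the vehicle level. Its slope was -0.15 per dose step and passed in limma, but not on the dose in mg/kg (adjusted p = 0.05015). The calls at 305.5 and 611 mg/kg and over all dose groups held under every alternative run. That at 153 mg/kg was lost without vehicle rat 1, 2 or 4 or without any 1 of the 3 rats of that dose (adjusted p from 0.0511 to 0.166).

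Cpt1a, the outer membrane palmitoyltransferase that limits entry into mitochondria, was on the higher side at all 4 doses, from 0.15 to 0.42, with an SE of 0.18 and adjusted p of 0.280 or more at single doses in limma. Over all dose groups it lay at 0.29 ± 0.13 (limma, adjusted p = 0.241). Cpt2, its partner at the inner membrane, ranged from -0.16 to 0.08. Slc25a20, the carnitine-acylcarnitine translocase, stayed between -0.05 and 0.03, with 95% bounds from -0.25 to 0.23.

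**Figure D2:**
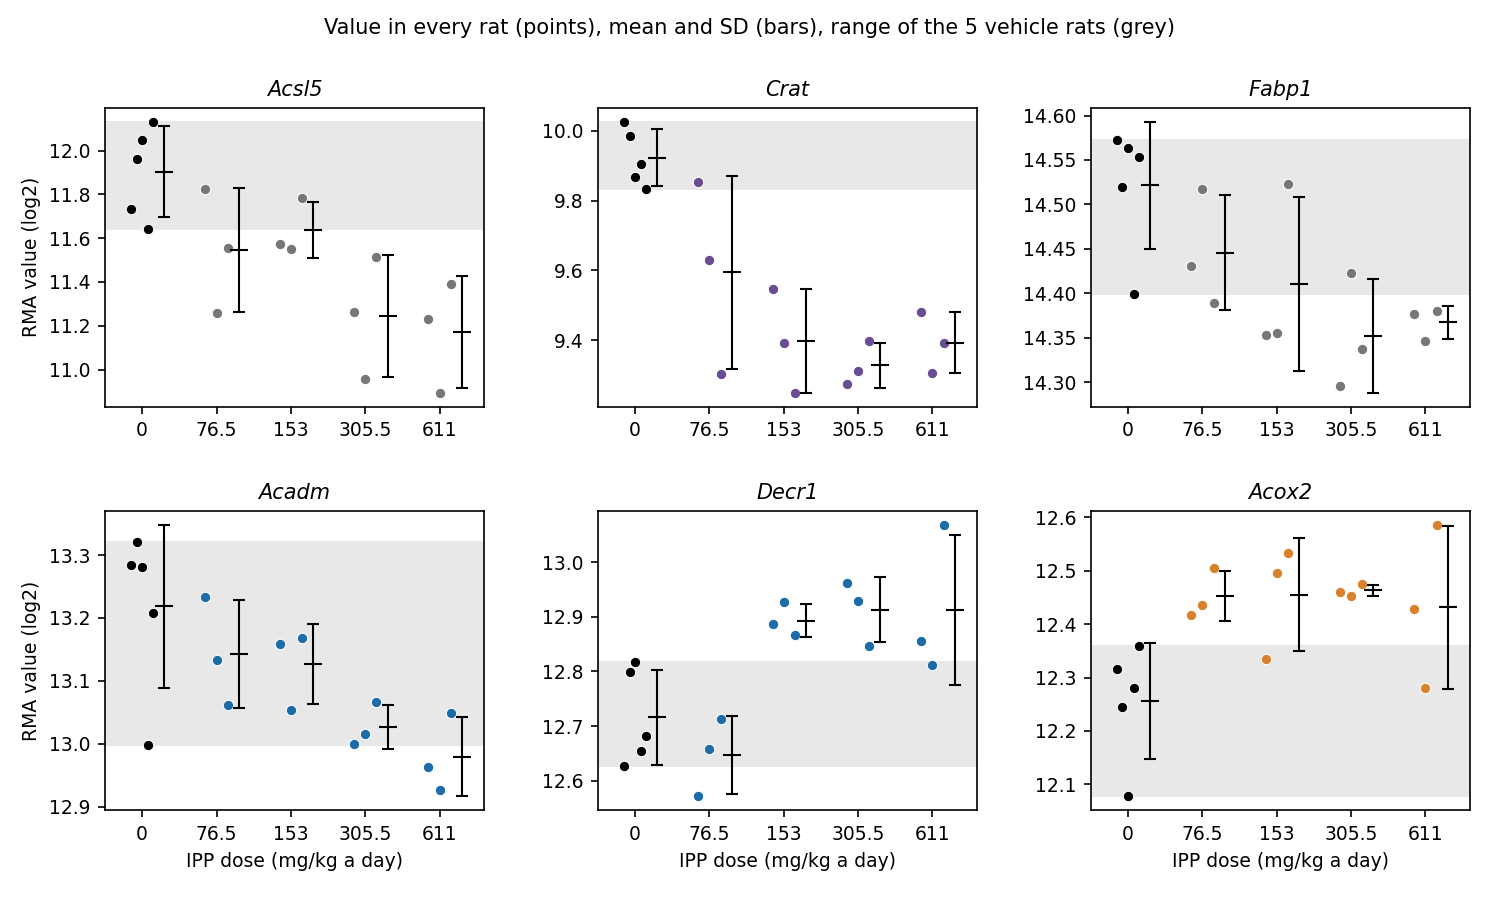
RMA value on the log2 scale (vertical axis) in every rat for the 5 members called in at least 1 comparison and for Acox2, by dose in mg/kg a day. Points are rats, bars the mean and SD of each group, and the grey band the range of the 5 vehicle rats. All 9 rats from 153 mg/kg up lie below the band for Crat, and 10 of 12 treated rats lie above it for Acox2.

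The acyl-CoA dehydrogenases take the first step of each cycle, each for chains of another length. Acadm, the medium-chain enzyme, measured 13.28, 13.32, 13.28, 13.00 and 13.21 in the vehicle rats and 13.23, 13.13 and 13.06 at 76.5 mg/kg. Its values were 13.16, 13.05 and 13.17 at 153 mg/kg, 13.00, 13.02 and 13.07 at 305.5 mg/kg, and 12.96, 12.93 and 13.05 at 611 mg/kg. Only 2 rats at 611 mg/kg lay below the vehicle range, whose low end was set by vehicle rat 4. Acadm fell along the doses by 0.06 ± 0.02 per step (limma, adjusted p = 0.0233) and lay at -0.24 ± 0.07 at 611 mg/kg (adjusted p = 0.0535). The slope no longer passed without vehicle rat 1, 2 or 3 or 611 mg/kg rat 1 or 2 (adjusted p from 0.0525 to 0.0586).

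Acadl, the long-chain enzyme, was lower than vehicle by -0.04 to -0.15 and passed nowhere (limma, adjusted p of 0.217 or more at single doses, 0.0934 for the slope). Acads, the short-chain enzyme, ranged from 0.02 to 0.17. Acadvl, the very long-chain enzyme of the inner membrane, lay within -0.00 and 0.09.

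None of the 4 genes of the hydratase, hydroxyacyl dehydrogenase and thiolase steps passed in limma, and 1 of them had an unadjusted p under 0.05 at 611 mg/kg. This was Acaa2, the mitochondrial thiolase that ends the cycle, with values of 12.98, 13.68, 13.60, 13.54 and 13.34 in the vehicle rats and 12.76, 13.14 and 13.15 at 611 mg/kg. At 76.5 mg/kg they were 13.68, 13.61 and 13.15, at 153 mg/kg 13.77, 13.49 and 13.16, and at 305.5 mg/kg 13.62, 13.45 and 13.56. The 611 mg/kg rats were below 4 of the 5 vehicle rats, and vehicle rat 1 lay among them. Acaa2 differed by -0.41 ± 0.16 at 611 mg/kg (adjusted p = 0.130) and by -0.53 ± 0.18 between 611 and 305.5 mg/kg (adjusted p = 0.205).

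Hadha and Hadhb encode the subunits of the trifunctional protein, which carries the last 3 steps for long chains. Hadha lay at -0.27 ± 0.15 at 611 mg/kg (limma, adjusted p = 0.296), with 10.85 in rat 2 against 11.71 and 11.62 in rats 1 and 3. That rat is the one with the large GAPDH difference, whose part in the value was not tested. Hadhb lay between -0.07 and 0.00, and Hadh, the short-chain hydroxyacyl dehydrogenase, between -0.09 and 0.05.

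The auxiliary enzymes move or remove double bonds of unsaturated chains. Decr1, the mitochondrial 2,4-dienoyl-CoA reductase, measured 12.63, 12.80, 12.82, 12.65 and 12.68 in the vehicle rats and 12.57, 12.66 and 12.71 at 76.5 mg/kg. It measured 12.89, 12.93 and 12.87 at 153 mg/kg, 12.96, 12.93 and 12.85 at 305.5 mg/kg, and 12.85, 12.81 and 13.07 at 611 mg/kg. All rats at 153 and 305.5 mg/kg and 2 of 3 at 611 mg/kg lay above the vehicle range. Decr1 rose by 0.06 ± 0.02 per dose step (limma, adjusted p = 0.0337), and lay at 0.18, 0.20 and 0.20 ± 0.07 at 153, 305.5 and 611 mg/kg, where it did not pass (adjusted p of 0.102 or more). The slope no longer passed without vehicle rat 1, 4 or 5, 305.5 mg/kg rat 1 or 611 mg/kg rat 3 (adjusted p from 0.0586 to 0.104).

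The isomerases Eci1 and Eci2 were on the lower side at all 4 doses, from -0.12 to -0.23 and from -0.00 to -0.16. Ech1, a dienoyl-CoA isomerase, lay between 0.01 and 0.30 with an SE of 0.15, and 611 mg/kg rat 2 (10.71) was its lowest rat. Of this role only Decr1 passed in any of the 7 comparisons.

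Electrons of the first step pass to the electron transfer flavoprotein and its dehydrogenase. Limma called 0 of these 3 genes in any comparison, and 0 had an unadjusted p under 0.05. Etfdh had the smallest p, at 305.5 mg/kg, with 10.93, 10.67 and 10.94 against 11.00, 11.13, 11.28, 10.81 and 10.97 in the vehicle rats. Only the second of these rats lay below the vehicle range, and the difference was -0.19 ± 0.11 (adjusted p = 0.475). Its values were 11.03, 10.88 and 11.04 at 76.5 mg/kg, 10.92, 10.98 and 11.14 at 153 mg/kg, and 10.81, 10.82 and 11.08 at 611 mg/kg. Etfb had the narrowest spread of the 35 members (SD within groups 0.05), and its 95% bounds at single doses lay between -0.19 and 0.15.

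Of the 7 peroxisomal members limma called 0 in any comparison, with 2 higher and 0 lower at an unadjusted p under 0.05 at 611 mg/kg. Acox2, the oxidase of branched chains and bile acid intermediates, came nearest. It measured 12.32, 12.24, 12.08, 12.28 and 12.36 in the vehicle rats, 12.42, 12.44 and 12.51 at 76.5 mg/kg, and 12.33, 12.50 and 12.53 at 153 mg/kg. It measured 12.46, 12.45 and 12.48 at 305.5 mg/kg and 12.43, 12.28 and 12.59 at 611 mg/kg. In all, 10 of 12 treated rats lay above every vehicle rat, the exceptions being rat 1 at 153 mg/kg and rat 2 at 611 mg/kg. Its difference over all dose groups was 0.19 ± 0.06 (limma, adjusted p = 0.0686), and it was nearly level over the doses, from 0.18 to 0.21.

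Hsd17b4, the D-bifunctional protein of the peroxisome, was likewise on the higher side at all 4 doses, from 0.10 to 0.18, with an adjusted p of 0.203 or more at single doses in limma. Ehhadh, the L-bifunctional protein and a standard marker of PPARA activation in rodents, ranged from -0.25 to 0.07, and its 95% bounds at 611 mg/kg were -0.40 and 0.28. Scp2, the peroxisomal thiolase and sterol carrier protein, stayed between -0.02 and 0.07, and Phyh, which starts the alpha-oxidation of phytanic acid, between -0.03 and 0.09. The fatty acid importers differed: Abcd3 ranged from -0.27 to 0.01, and Abcd2, dim at a mean of 5.94, from 0.03 to 0.37 with an SE of 0.23.

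Compartments were compared rat by rat, as the mean over the members of each after subtracting each gene's vehicle mean. The mitochondrial mean over 19 genes was -0.05, 0.12, 0.06, -0.08 and -0.05 in the vehicle rats and -0.04, -0.07 and 0.01 at 611 mg/kg. The peroxisomal mean over 7 genes was -0.03, 0.12, -0.03, -0.10 and 0.04 in the vehicle rats and 0.01, 0.09 and 0.22 at 611 mg/kg. The mitochondrial values at 611 mg/kg lay inside the vehicle range, and 1 peroxisomal value, that of rat 3, lay above it.

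Within each rat, the peroxisomal minus the mitochondrial mean was 0.00 ± 0.06 (SD, n = 5) in vehicle, 0.04 ± 0.08 (SD, n = 3) at 76.5 mg/kg, 0.00 ± 0.05 at 153 mg/kg, 0.06 ± 0.07 at 305.5 mg/kg and 0.14 ± 0.07 at 611 mg/kg. The 3 rats at 611 mg/kg had 0.06, 0.16 and 0.20, and the vehicle rats ran from -0.09 to 0.09, so 1 of the 3 overlapped them. With the median over genes in place of the mean, the same 3 rats had -0.04, 0.08 and 0.21 against -0.12 to 0.09 in vehicle, so 2 of the 3 overlapped. By that measure the rats at 76.5 mg/kg, at 0.13, 0.14 and 0.12, lay above the vehicle range, which they did not by the mean. No test was made of these means, which average members chosen as a list. The median difference at 76.5, 153, 305.5 and 611 mg/kg was -0.03, 0.01, -0.04 and -0.01 for mitochondrial and 0.03, 0.07, 0.05 and 0.09 for peroxisomal members. These medians are small and moved with single rats. Leaving out 1 rat at a time took the peroxisomal median to between -0.0036 (without vehicle rat 4) and 0.13 (without rat 3 of the dose) at 76.5 mg/kg, and to between 0.04 (vehicle rat 4) and 0.11 (vehicle rat 2) at 153 mg/kg. It ran from 0.02 (vehicle rat 4) to 0.11 (rat 2 of the dose) at 305.5 mg/kg and from 0.04 (vehicle rat 5) to 0.15 (rat 1 of the dose) at 611 mg/kg. The mitochondrial median ran from -0.07 to 0.03 over the 4 doses and changed sign at 76.5, 153 and 611 mg/kg. Of the mitochondrial members 2 were higher and 4 lower than vehicle at all 4 doses, and of the peroxisomal members 3 were higher and 0 lower. These 3 were Hsd17b4, Acox2 and the dim Abcd2. All 4 differences of a gene use the same 5 vehicle rats, which favours 1 sign throughout. The share of all genes with 1 sign throughout was not counted, so these counts do not set the compartments apart.

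**Figure D3:**
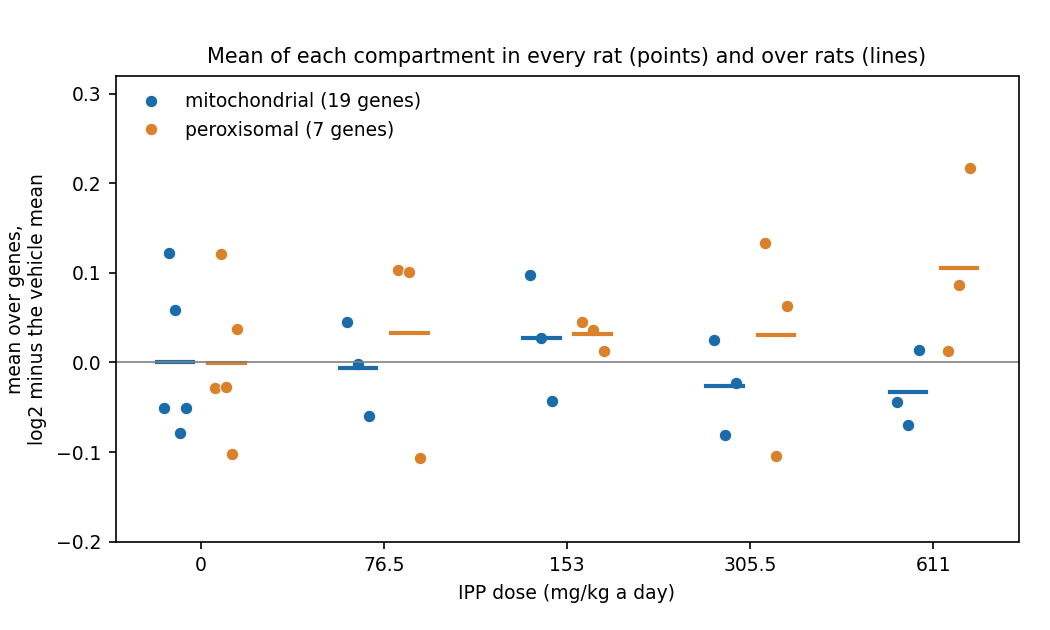
Mean over the 19 mitochondrial (blue) and the 7 peroxisomal (orange) members in each rat, as log2 minus the vehicle mean, by dose in mg/kg a day; points are rats and short lines group means. At 611 mg/kg the peroxisomal rats lie at 0.01, 0.09 and 0.22 and the mitochondrial rats between -0.07 and 0.01.

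Acot2, a mitochondrial thioesterase that frees fatty acids from coenzyme A, measured 9.82, 10.14, 9.99, 9.45 and 9.81 in the vehicle rats and 9.96, 9.96 and 9.73 at 611 mg/kg. It measured 9.89, 10.21 and 9.81 at 76.5 mg/kg, 9.85, 9.56 and 9.69 at 153 mg/kg, and 9.90, 9.61 and 9.57 at 305.5 mg/kg. Apart from rat 2 at 76.5 mg/kg, above the range, the treated rats lay among the vehicle rats, and the differences from vehicle, between -0.15 and 0.13, did not pass in limma (adjusted p of 0.713 or more). Its smallest p was between 611 and 305.5 mg/kg (0.19 ± 0.16, limma, adjusted p = 0.556).

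Acat1 and Bdh1 represent ketone metabolism: the first makes and cleaves acetoacetyl-CoA, and the second interconverts acetoacetate and beta-hydroxybutyrate. Limma called neither in any comparison, and Acat1 alone had an unadjusted p under 0.05. Acat1 measured 11.72, 11.99, 11.84, 11.68 and 11.85 in the vehicle rats, 11.76, 11.64 and 11.87 at 76.5 mg/kg, and 12.07, 12.01 and 12.13 at 153 mg/kg. It measured 12.06, 11.98 and 11.88 at 305.5 mg/kg and 12.01, 11.90 and 12.04 at 611 mg/kg. Only at 153 mg/kg did all 3 rats lie above the vehicle range, and the difference there was 0.26 ± 0.08 (limma, adjusted p = 0.213). Bdh1 lay between -0.13 and 0.01 with an SE of 0.12.

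Ppara itself was dim, with a mean of 5.90 below every array median. It measured 5.75, 6.33, 5.98, 6.17 and 5.94 in the vehicle rats and 5.78, 5.25 and 5.04 at 76.5 mg/kg. It measured 6.10, 6.27 and 6.09 at 153 mg/kg, 5.82, 5.87 and 5.81 at 305.5 mg/kg, and 5.81, 6.02 and 6.22 at 611 mg/kg. Rats 2 and 3 at 76.5 mg/kg lay below all others, and these are the arrays with the lowest weights of that dose, 0.31 and 0.27. The difference at 76.5 mg/kg was -0.68 ± 0.15 (limma, adjusted p = 0.0802), and at the other doses it lay between -0.20 and 0.12. Without 76.5 mg/kg rat 1 the count of members called at that dose rose from 0 to 1, which was Ppara.

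**Figure D4:**
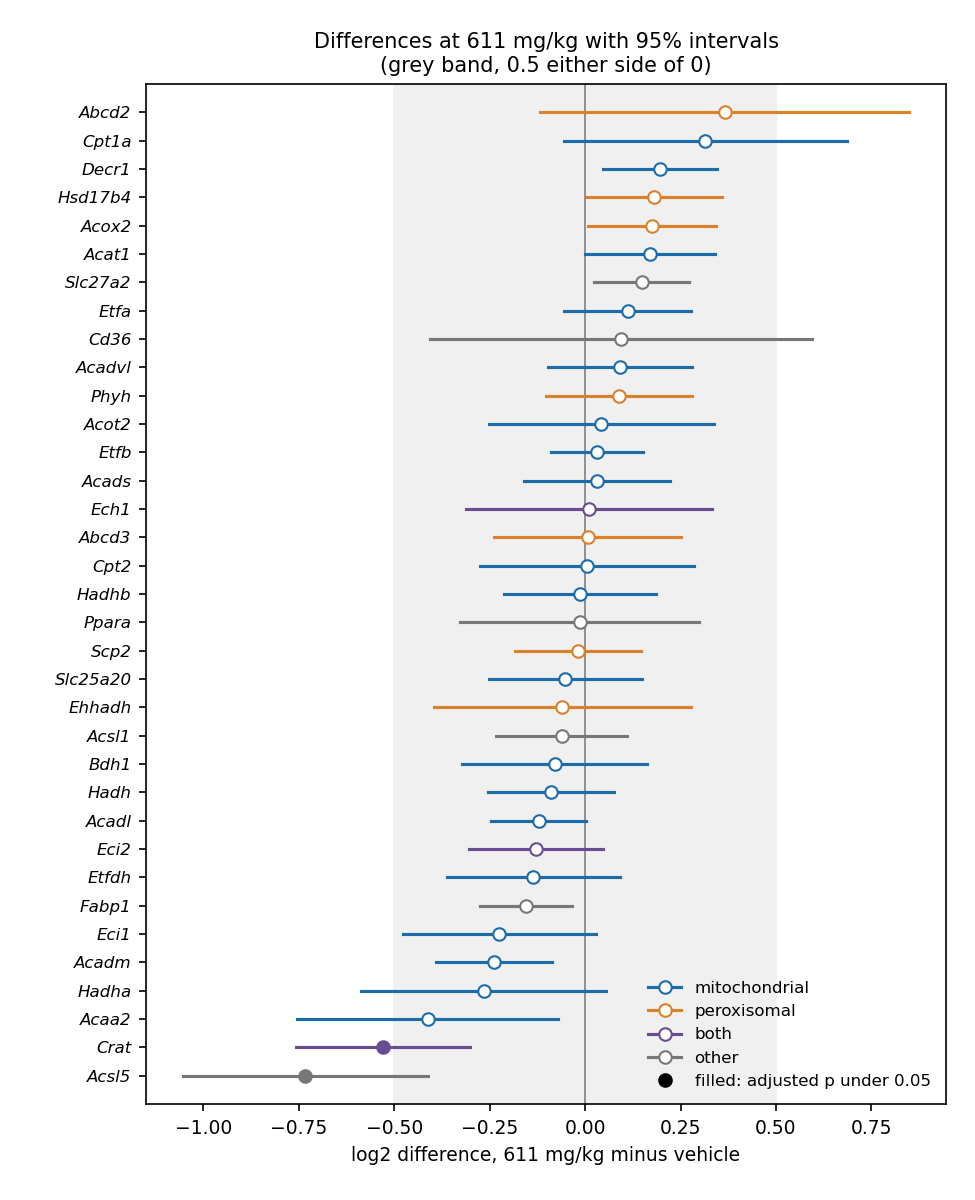
Difference at 611 mg/kg minus vehicle on the log2 scale (horizontal axis) with its 95% interval from limma for each of the 35 members, ordered by size and coloured by compartment; filled points passed at adjusted p under 0.05. The 2 filled points are Acsl5 (the brighter of its probe sets) and Crat at -0.73 and -0.53, and the grey band marks 0.5 either side of 0.

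Other genes of these pathways also passed at 611 mg/kg, where 5.04% of all genes were higher and 2.42% lower. Of those named in this paragraph, only Acsm5 and Bdh2 differed by more than the brighter Acsl5 probe set (-0.73). Among 17 other mitochondrial oxidation and ketone genes measured of 19 listed, 3 rose and 0 fell at 611 mg/kg (median 0.13). These were Acsm5, a medium-chain acyl-CoA synthetase (1.33 ± 0.29, limma, adjusted p = 0.0107), Bdh2, a cytosolic hydroxybutyrate dehydrogenase (0.86 ± 0.18, adjusted p = 0.00845, dim at a mean of 6.26), and Acad9, an acyl-CoA dehydrogenase that also assembles respiratory complex I (0.57 ± 0.09, adjusted p = 0.00191). Of 24 other peroxisomal genes measured of 30 listed, 4 rose and 2 fell (median 0.05). Amacr, the racemase of branched chains, rose by 0.63 ± 0.09 (adjusted p = 0.000787), and Crot, the peroxisomal carnitine octanoyltransferase, fell by 0.65 ± 0.13 (adjusted p = 0.00739). The other genes that passed encode peroxins, proteins of peroxisome assembly and division, and went both ways: Pex2 (0.41), Pex16 (0.31) and Pex7 (0.39) rose, and Pex11a (-0.43) fell. Pex7 and Pex11a were added to the named genes after their values were seen.

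As a reference, 16 measured genes of other mitochondrial functions had a median of 0.02 at 611 mg/kg; limma called 0, and 1 higher and 0 lower had an unadjusted p under 0.05. Of 13 other PPARA targets measured of 14 listed, 6 fell and 1 rose at 611 mg/kg, with a median of -0.32. Over all genes 2.42% were lower and 5.04% higher at that dose. The lists were chosen with earlier results of these data known, so their counts and medians are description. Pdk4, a kinase that blocks pyruvate oxidation, fell by 1.25 ± 0.28 (limma, adjusted p = 0.0113), and Plin2, a lipid droplet coat protein, by 0.98 ± 0.14 (adjusted p = 0.000696). Cyp4a3, an omega-hydroxylase of fatty acids, fell by 0.90 ± 0.17 (adjusted p = 0.00570), whereas Cyp4a8 rose by 1.02 ± 0.20 (adjusted p = 0.00548). At 153 mg/kg Fgf21 rose by 1.71 ± 0.38 (limma, adjusted p = 0.0426) and Cyp4a1 fell by 0.72 ± 0.14 (adjusted p = 0.0166). Fgf21 lay at 0.65 ± 0.38 at 611 mg/kg and did not pass (limma, adjusted p = 0.303). Fgf21 and Cyp4a1 were added to the named genes after their values were seen. Of 13 regulators of oxidation 1 rose and 1 fell at 611 mg/kg. Nr1d1, a clock repressor, rose, and Lpin1, a phosphatidate phosphatase and coactivator, lay at -1.39 ± 0.40 (limma, adjusted p = 0.0438). The clock list held 13 measured genes, of which 6 rose and 3 fell at 611 mg/kg, with Dbp at 4.19 ± 0.38 and Bmal1 at -2.21 ± 0.26 (limma, adjusted p = 9.01e-06 and 0.000131), and their part in the members' values was not tested.

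**Figure D5:**
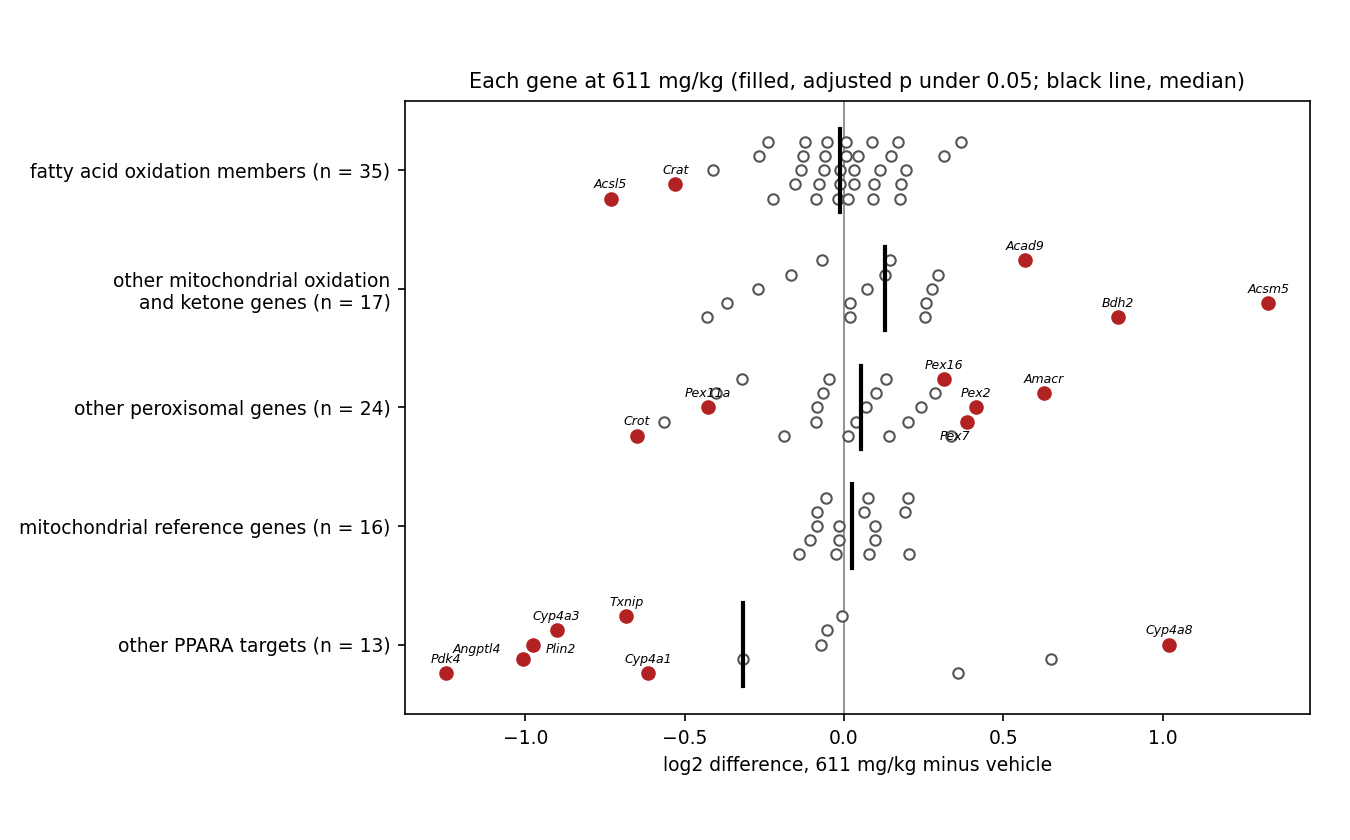
Difference at 611 mg/kg minus vehicle on the log2 scale for each gene of the 35 members and of 4 other lists (rows); filled points passed at adjusted p under 0.05 and black lines are medians. The members' median is -0.01 and that of the other PPARA targets -0.32, in lists chosen with earlier results of these data known.

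Markers of other liver cells moved at the upper doses. At 611 mg/kg, 2.42% of all genes were lower and 5.04% higher. Of 6 endothelial markers 4 were lower at 611 mg/kg (Stab2, Lyve1, Kdr and Pecam1), and their mean over markers was 9.45 to 9.66 in vehicle rats and 9.05 to 9.11 at 611 mg/kg. Of 7 stellate cell markers 1 was lower, Pdgfrb, with means of 8.04 to 8.37 in vehicle and 7.68 to 7.87 at 611 mg/kg. Both red cell markers measured, Hbb and Alas2, were lower (means 10.62 to 10.91 and 8.80 to 9.75). Of 7 macrophage markers limma called 0, with 4 lower and 0 higher at an unadjusted p under 0.05 and means of 9.62 to 10.19 in vehicle and 9.58 to 10.01 at 611 mg/kg. Of 4 cholangiocyte markers 1 rose, Epcam, and 1 fell, Krt7. Of 9 hepatocyte markers 0 passed at 611 mg/kg in limma, with 1 lower and 0 higher at an unadjusted p under 0.05. The part of these cells in the falls of Crat and of the brighter Acsl5 probe set was not tested.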

How the data were processed

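RNA from the liver of 17 rats was measured on 1 array each. The authors deposited log2 values per probe set, made with RMA per the submitters' processing notes; the program and its version are not stated in the labels. Of 31099 probe sets, 20826 had 1 gene symbol in the platform annotation of 2016, and the brightest per gene gave 14217 genes; no filter on signal was used. Groups came from the labels, and p-values rest on separate rats.

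Tests used limma (version 3.58.1, R 4.3.3), with the 5 groups as a factor and eBayes with trend, and Benjamini-Hochberg adjustment over all genes within each of 7 comparisons at 0.05. The fit was tested on simulated data. RMA equalises array distributions, so a shift shared by most genes cannot be seen. The number of arrays limits the precision. Members, roles and lists were chosen with earlier results of these data known. Every member may be named; values in every rat are given for members called anywhere and, in roles without one, for that with the smallest p; up to 4 genes are named per other list, with the exceptions stated. Promoters were searched by script. Alternatives were the mean over probe sets, each other probe set, median centring of each array, a filter removing the dimmest 40% of genes, limma array weights, moderation without a trend or robust to outlying genes, the replicate number as a block, a fit on only the groups compared, omission of 3 arrays that stood apart or of each rat, the GAPDH difference as a covariate, a threshold of 0.01 and, for the slope, the dose in mg/kg or no 611 mg/kg group.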

Additional observations from a re-analysis of the deposited data

Results flagged for a closer look

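In each member the 5 vehicle rats were checked for 1 that stood apart from the other 4 by Dixon's criterion at 95%. This held for 4 of 35 members, and chance alone flags about 1 in 20 groups. Hadhb was 12.673 in vehicle rat 2, above the others (12.27 to 12.36). Hadh was 12.99 in vehicle rat 4, below the others (13.23 to 13.27), and Ehhadh was 11.134 in the same rat, below the others (11.79 to 11.96). Eci1 was 12.256 in vehicle rat 3, below the others (12.43 to 12.48). None of these 4 genes passed against vehicle in limma in any of the 7 comparisons.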

How the results depend on the processing

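The falls of Crat at 305.5 and 611 mg/kg kept direction and threshold in 28 of 28 alternatives. The dimmer probe set of Acsl5 reversed the fall of that gene: 0.27 at 305.5 mg/kg, 0.22 at 611 mg/kg, 0.24 over all doses and 0.053 per dose step. Members called fell to 1 with the mean over probe sets at 305.5 mg/kg, 611 mg/kg and over all doses. Array weights gave 7 at 611 mg/kg (Acadm, Acsl5 and Crat lower, Acox2, Decr1, Hsd17b4 and Slc27a2 higher) and 4 over all doses; over all genes the calls rose too, from 716 higher and 344 lower to 1206 and 678 at 611 mg/kg, and from 310 and 260 to 943 and 724 over all doses. A threshold of 0.01 left 0 at 153 mg/kg, 1 at 305.5 mg/kg, 1 over all doses and 2 in the slope. The slope also fell from 5 to 2 on the dose in mg/kg and without the 611 mg/kg group. The Fabp1 slope was lost in 19 of 29 alternatives, Decr1 in 9, Acadm in 7 and Crat in 1. Leaving out each rat gave 0 to 1 members at 76.5 mg/kg, 0 to 1 at 153 mg/kg, 1 to 2 at 305.5 mg/kg, 1 to 3 at 611 mg/kg, 1 to 3 over all doses and 2 to 5 in the slope. The peroxisomal median at 76.5 mg/kg, 0.03, became 0.13 with array weights and 0.16 without the 3 arrays that stood apart, and ran from -0.0036 to 0.13 when each rat was left out. The cause of these changes was not tested. Deviations of same-numbered rats correlated from -0.26 to 0.40 over 30 pairs, with 10 above 0.1 and the rest not, so the numbers were not taken to pair the rats. With the replicate number as a block the count went from 1 to 0 at 153 mg/kg, from 5 to 3 in the slope and from 2 to 3 at 611 mg/kg. With 3 rats per dose, the number of arrays limits the precision, and signals near the array median limit Ppara, Abcd2 and Cd36.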
